A study of Homo sapiens with 62 samples.

Results

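Simple epithelial keratins were followed in SLAM-seq data from human pancreatic ductal adenocarcinoma (PDAC) cells. The members are defined by gene name: KRT7, KRT8, KRT18, KRT19, KRT20, KRT23 and KRT80, which are 7 of the 29794 genes in the tables. SLAM-seq marks RNA made during a pulse of 4-thiouridine, which appears in sequencing reads as T>C conversions, so each gene has a count of T>C reads (newly made RNA) and a count of all reads (the standing pool). The labelled share, as it is called here, is the percentage of a gene's reads that carry T>C conversions. CPM (counts scaled to library size) are compared only between samples of the same gene. A labelled share also depends on the length and T content of the 3′UTR, since a read needs a T to convert, so shares of different genes are set side by side only as a description.

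Every library, controls included, came from AsPC-1 or T3M-4 cells of the genotype FKBP12-F36V-FLAG-KLF5_sgEndogenousKLF5, in which a lentiviral, guide-resistant KLF5 cDNA fused to the FKBP12-F36V degron stood in for endogenous KLF5, itself targeted by a guide RNA in Cas9-expressing cells after drug selection. AsPC-1 is a classical and T3M-4 a basal-like PDAC line. In AsPC-1, 10 libraries had received the degrader dTAGv-1 (called dTAG) and 10 its inactive analogue dTAGv-1-NEG (called NEG) for 4 h. Also in AsPC-1, 5 DMSO, 5 CB-6644 and 4 NVP-2 libraries were taken at 4 h, and 4 DMSO and 4 CB-6644 libraries at 12 h. T3M-4 had 4 libraries each of NEG, dTAG, DMSO, CB-6644 and NVP-2, all at 4 h. CB-6644 inhibits the ATPase activity of RUVBL1/2, NVP-2 inhibits the transcription kinase CDK9, and DMSO is the solvent. The comparisons asked what loss of KLF5, of RUVBL1/2 activity or of CDK9 activity does to new transcripts in each line.

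Keratins are the intermediate filament proteins of epithelia, and each filament is built from type II and type I chains that pair with each other. KRT8 (type II) with KRT18 (type I) is the founding pair of simple epithelia, while KRT7 (type II) and KRT19 (type I) are added in ducts, including those of the pancreas, and are widely used as ductal markers. KRT20 marks gastrointestinal epithelium, KRT23 is a type I chain, and KRT80 is a type II chain linked to desmosomes.

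KLF5 belongs to a family of zinc finger factors that recognise GC-rich CACCC-type boxes. Stretches of the members' promoters are therefore shown, read from GRCh38 (hg38) around the start of the GENCODE v44 canonical transcript. Within 250 bases before and 50 bases after each start, the letters CCNCNCCC were searched on both strands. Each line gives 30 bases, 5′ to 3′ on the strand of the gene, with the match of that motif nearest to the start, or its reverse complement, in capitals.
KRT7, chr12:52233249-52233278, plus strand: tgcgcgctcctCCTCGCCCgccgctaggtc
KRT8, chr12:52905251-52905280, minus strand: cctgggtttctGGGGGTGGtgctggagtgg
KRT80, chr12:52192099-52192128, minus strand: catgctgctggGGGAGGGGcgggagcaccc
KRT18, chr12:52949058-52949087, plus strand: ctccggggcggGGGCGGGGcctcactctgc
KRT19, chr17:41528445-41528474, minus strand: ctctggtctctGGGAGGGGagggaattgac
KRT20, chr17:40885336-40885365, minus strand: tacaaagcgggGGGCGTGGaagtaaggcaa
KRT23, chr17:40937609-40937638, minus strand: gcacgtggctcCCGCCCCCagactgcttct
All 7 promoters held the motif, as did 69.5% of 20046 promoters of the same length, so its presence does not set the keratins apart. KRT18 held 7 matches, KRT80 held 5 and KRT7 held 3, against 1 or 2 in the others. Overlapping matches were counted each on their own, and several matches in KRT18 and KRT80 overlapped, so these are not counts of separate sites. Matches per promoter were not counted over all promoters, so the counts do not rank the keratins. The narrower letters CCACNCCC, which are a subset of the first motif, were found in KRT8, KRT18, KRT20 and KRT80, that is in 4 of 7, against 20.2% of all promoters. A match is a description of the letters only.

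The genes sit in the keratin clusters of chromosomes 12 and 17. KRT8 (ENSG00000170421.13, chr12:52897187-52949954, minus strand) and KRT18 (ENSG00000111057.11, chr12:52948871-52952906, plus strand) are neighbours whose gene records overlap by 1084 bases on opposite strands. The 3′UTRs of their canonical transcripts share 0 bases. Reads were counted over all annotated 3′UTR exons of a gene, which can cover more than the canonical 3′UTR. KRT7 (ENSG00000135480.17, chr12:52232520-52252186, plus strand) and KRT80 (ENSG00000167767.14, chr12:52168996-52192014, minus strand) lie on the same chromosome. KRT19 (ENSG00000171345.13, chr17:41523617-41528308), KRT20 (ENSG00000171431.4, chr17:40875889-40885242) and KRT23 (ENSG00000108244.17, chr17:40922700-40937646) are all on the minus strand. The canonical 3′UTR was 64 bases with 11 T for KRT18, 126 bases with 31 T for KRT19, 161 bases with 29 T for KRT7, 237 bases with 47 T for KRT8 and 2402 bases with 607 T for KRT80. KRT18, KRT8 and KRT19 have processed pseudogenes with rows of their own, 37, 23 and 3 of them. In a library those rows summed to at most 3.09% of all KRT18 reads and 13.6% of its T>C reads, and to at most 0.542% and 2.60% for KRT8 and 0.422% and 0.561% for KRT19, so KRT18 is the member for which reads may be split between copies.

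An AsPC-1 library held 2240998 to 18311982 T>C reads among 82676553 to 200298262 reads in all, and a T3M-4 library 3714015 to 27982537 among 111132257 to 244524608. No 2 libraries of a group agreed within sampling noise in 158 pairs. The labels give an experiment number and a library number within it (such as 1.3), and the study's legends speak in one place of 3 (AsPC-1) or 2 (T3M-4) biological replicates and in another of 2 biological replicates per condition within each of as many independent experiments. Whether libraries of an experiment share a culture is therefore not settled, and p-values may partly measure technical spread. All reads of dTAG library 3.1 in AsPC-1 were not used, which leaves 9 dTAG libraries wherever all reads enter. On 500 variable genes, which included KRT7 and no other member, the AsPC-1 libraries fell into sets of 24, 17 and 1, with controls and treated libraries in both large sets. Cells of both lines had reads of the epithelial genes EPCAM and CDH1 in every library, and summed classical markers ran from 305 to 803 CPM in AsPC-1 against 73.0 to 241 CPM in T3M-4, basal-like markers from 9.97 to 56.7 CPM against 2043 to 5675 CPM. CEACAM6 made up much of the classical sum in AsPC-1, with a median of 273 CPM against 36.8 in T3M-4. Medians of HNF4A (14.9 and 0.182) and MYO1A (5.74 and 0.0174) were far apart, while those of MUC1 (37.3 and 33.6) and AGR2 (49.8 and 43.9) were close. No list of fibroblast, leukocyte or endothelial markers summed above 24.9 CPM in any library, and the leukocyte list shares LYZ with the classical one. T>C reads of KLF5 itself were higher in dTAG than NEG, by log2 0.60 ± 0.11 (SE, edgeR adjusted p = 0.00284) in AsPC-1 and 0.90 ± 0.15 (adjusted p = 0.0258) in T3M-4. That row measures KLF5 RNA and not the degraded protein, so it does not check the labels.

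The lines differed first in which keratins they made. In the DMSO libraries at 4 h, KRT7 was low in AsPC-1, with 2.1 to 9.002 CPM of all reads in 5 libraries, and abundant in T3M-4, with 359, 361, 599 and 1102 CPM. The groups lay far apart, and the difference was log2 6.91 ± 0.54 (SE) with an adjusted p of 2.88e-06 in edgeR. The reverse held for the KRT8 and KRT18 pair: KRT8 had 1444, 1466, 1663, 2437 and 3042 CPM in AsPC-1 against 200, 388, 589 and 648 CPM in T3M-4, and KRT18 had 1583 to 3523 CPM against 369 to 599 CPM. KRT80 was also lower in T3M-4, with 3.78 to 6.09 CPM against 7.23 to 39.1 CPM. The 7.23 CPM came from DMSO library 1.3, the only DMSO library at 4 h in the AsPC-1 set of 17 described above. That set, treated and control libraries together, had a lowest value of 4.16 and a median of 6.47 CPM, so it overlapped the T3M-4 values. The lowest value in the set of 24 was 18.5 CPM. The size of the KRT80 difference therefore depends on which AsPC-1 libraries are compared. T3M-4 minus AsPC-1, the differences were log2 -2.24 ± 0.36 for KRT8, -2.49 ± 0.30 for KRT18 and -2.40 ± 0.41 for KRT80 (edgeR adjusted p = 0.000421, 5.04e-05 and 0.000545). KRT19 did not pass the test (0.25 ± 0.31, edgeR adjusted p = 0.515), with 402 to 730 CPM in AsPC-1 and 403 to 1016 CPM in T3M-4. These CPM were scaled within each line and not over both lines together. The log2 differences come from edgeR fits of the DMSO libraries of both lines. So 4 of the 5 members tested differed between lines, where 55.7% of all genes did. Line and culture cannot be told apart here, and in bulk RNA fewer cells expressing a gene and less RNA per cell cannot be told apart either.

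KRT20 and KRT23 were close to absent. KRT20 had 0 T>C reads in all 62 libraries, and among all reads it had 3 reads, in 3 of 41 AsPC-1 libraries, and 2 reads, in 1 of 20 T3M-4 libraries. A count of 0 allows up to 3 reads, which is 0.142 to 1.89 T>C CPM in an AsPC-1 library and 0.0971 to 1.29 in a T3M-4 library. KRT23 had 9 T>C reads in 2 of 42 AsPC-1 libraries and 30 in 6 of 20 T3M-4 libraries. Its counts were all multiples of 3, so they may stand for fewer reads, and the reason was not tested. Neither gene passed the expression filter in any comparison, which leaves 5 members. KRT7 in AsPC-1 had 650 T>C reads over 35 of 42 libraries and at most 83 in a library, and its AsPC-1 values carry large errors.

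**Figure D1:**
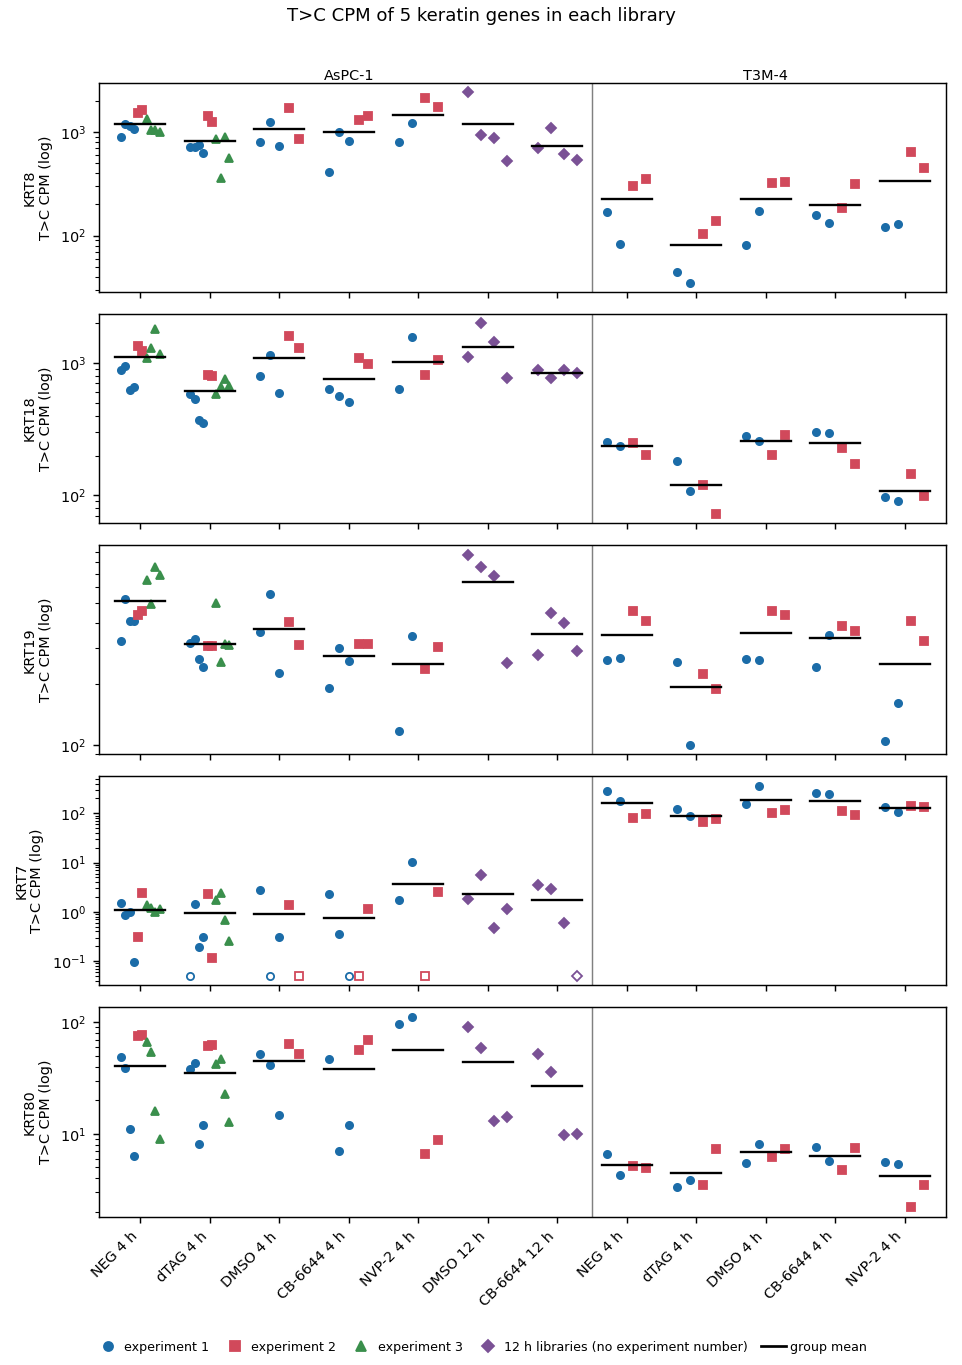
T>C CPM (vertical log axis) of KRT7, KRT8, KRT18, KRT19 and KRT80, a panel for each gene, in every library of the 12 groups (horizontal axis). Points are libraries, with colour and shape giving the experiment number, open points at the bottom are libraries with 0 reads, and black lines are group means. KRT7 is low in AsPC-1 and 67.55 to 363 in T3M-4, and KRT80 splits into 2 levels in AsPC-1 in treated and control groups alike.

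The share of reads that carried T>C conversions also differed between the members. In NEG libraries at 4 h the labelled share of KRT8 was 4.45% ± 0.778 (SD, n = 10) in AsPC-1 and 5.93% ± 0.603 (SD, n = 4) in T3M-4. That of KRT18 was 3.52% ± 0.609 and 6.47% ± 1.02, and that of KRT19 was 6.25% ± 1.06 and 7.12% ± 1.48. That of KRT7, on few reads in AsPC-1, was 3.32% ± 2.31 and 3.38% ± 0.452. KRT80 had the highest, 16.2% ± 3.42 and 16.5% ± 1.92. The median gene of a NEG library had a labelled share of 12.4 to 15.6% in AsPC-1 and 15.6 to 18.8% in T3M-4, so KRT8, KRT18 and KRT19 stood low and KRT80 near the middle. KRT80 also had the longest canonical 3′UTR of the members, with the most T to convert. Among the others the shares did not follow that length throughout. KRT19, with 126 bases, had a higher share than KRT8, with 237 bases, in both lines. The part of the 3′UTR was not tested, and the counted exons may differ from the canonical 3′UTR. T>C counts of KRT80 were even in every library, and its counts of all reads in 40 of 41 AsPC-1 and 20 of 20 T3M-4 libraries, so its reads may have been counted more than once and its errors be larger than the counts imply. In the DMSO libraries the labelled share of KRT18 differed between lines, by log2 0.75 ± 0.20 (limma adjusted p = 0.0317) in T3M-4 against AsPC-1, while 16.9% of genes differed. It was the only 1 of the 5 members called, and not after the library median was subtracted (0.56, adjusted p = 0.0812).

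New transcripts of KRT18 and KRT19 fell after dTAGv-1 in AsPC-1. KRT18 had a lowest, median and highest value of 621, 1132 and 1789 T>C CPM in the 10 NEG libraries and 354, 620 and 809 in the 10 dTAG libraries. KRT19, the type I partner in ducts, had 325, 477 and 755 T>C CPM against 242, 311 and 502. The groups overlapped: 5 of 10 dTAG libraries lay below the lowest NEG library for KRT18, and 8 of 10 did for KRT19. The changes were log2 -0.84 ± 0.18 (SE; edgeR adjusted p = 0.0117) for KRT18 and -0.69 ± 0.15 (adjusted p = 0.0105) for KRT19. KRT8, the type II partner of KRT18, had 895, 1109 and 1644 T>C CPM in NEG and 359, 735 and 1427 in dTAG, with 7 of 10 dTAG libraries below the lowest NEG library, and did not pass (-0.53 ± 0.19, adjusted p = 0.183). KRT7 (-0.20 ± 0.57) and KRT80 (-0.20 ± 0.45) did not pass either. Thus 2 of 5 members tested were called, where 2.4% of 11696 genes were called and 1.94% were called lower.

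Those calls depended on how libraries of an experiment were treated. With the experiment number as a block, KRT8 was called too (-0.57, adjusted p = 0.0153), beside KRT18 (-0.83, adjusted p = 0.000283) and KRT19 (-0.67, adjusted p = 0.00296), while 3.82% of genes were called. With counts summed to 1 value per experiment and no block, 0 members and 0 genes were called by edgeR, although 815 genes had an unadjusted p under 0.05. With that block added to the summed counts, KRT18 and KRT19 were called again. No setting of this comparison called more than 945 of all genes. Within batch 1, experiments 1 and 2, the values were -0.72 for KRT18 and -0.53 for KRT19 (edgeR adjusted p = 0.271 and 0.0655). Within batch 2, experiment 3, they were -1.01 and -0.91 (adjusted p = 0.0875 and 0.252). Leaving out experiment 1 ended the call of KRT19 (edgeR adjusted p = 0.127), and no single library did so for KRT18 or KRT19. Without dTAG library 2.1, KRT8 was called as well (-0.66, adjusted p = 0.044). KRT8, KRT18 and KRT19 were lower in dTAG in each of these fits. Scaling T>C counts by all reads moved the median gene from 0.03 to -0.22 and called the same 3 genes, KRT8 at -0.80 among them (edgeR adjusted p = 0.0162). Of all genes, 945 were called in that fit.

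In T3M-4 the same 3 genes had lower values after dTAGv-1, and fewer libraries to test them with. KRT8 had 167, 82.5, 298 and 353 T>C CPM in NEG libraries 1.1, 1.2, 2.1 and 2.2, and 44.9, 35.2, 104 and 139 in the dTAG libraries of the same numbers. Experiment 2 was higher than experiment 1 in both arms, so the groups overlap although each dTAG library lies below the NEG library of its number. KRT18 had 253, 234, 247 and 203 T>C CPM in NEG against 181, 108, 120 and 72.8 in dTAG. KRT19 had 263, 269, 460 and 408 against 257, 100, 225 and 188. For KRT18 and KRT19 all 4 dTAG libraries lay below all 4 NEG libraries, as 3.64% of genes did, and for KRT19 the highest dTAG library came close to the lowest NEG library. Without a block, log2 changes were -1.49 ± 0.52 for KRT8, -0.97 ± 0.26 for KRT18 and -0.87 ± 0.30 for KRT19, and none passed (edgeR adjusted p = 0.419, 0.171 and 0.424). KRT7 was at -0.85 ± 0.37 (adjusted p = 0.669) and KRT80 at -0.23 ± 0.35. Hence 0 of 5 members were called, against 0.834% of 13424 genes. At an unadjusted p under 0.05 there were 957 genes, 7.13%, in edgeR. DESeq2 called 1 member, KRT18 (DESeq2 adjusted p = 0.0325). No setting of this comparison, DESeq2 included, called more than 354 genes.

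The labels make experiment numbers and batches the same thing in T3M-4, and with that number as a block KRT8 was called at -1.54 ± 0.22 (edgeR adjusted p = 0.00371) and KRT18 at -0.999 ± 0.22 (adjusted p = 0.035), while 2.64% of genes were called. KRT8 was at -1.63 within experiment 1 (adjusted p = 0.125) and at -1.42 within experiment 2 (adjusted p = 0.0346). The change of KRT8 in T3M-4 minus that in AsPC-1, tested as an interaction, was log2 -0.94 ± 0.46 (edgeR adjusted p = 0.864), and no member's dTAG effect differed between lines by that test, in which 0.0426% of genes were called.

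**Figure D2:**
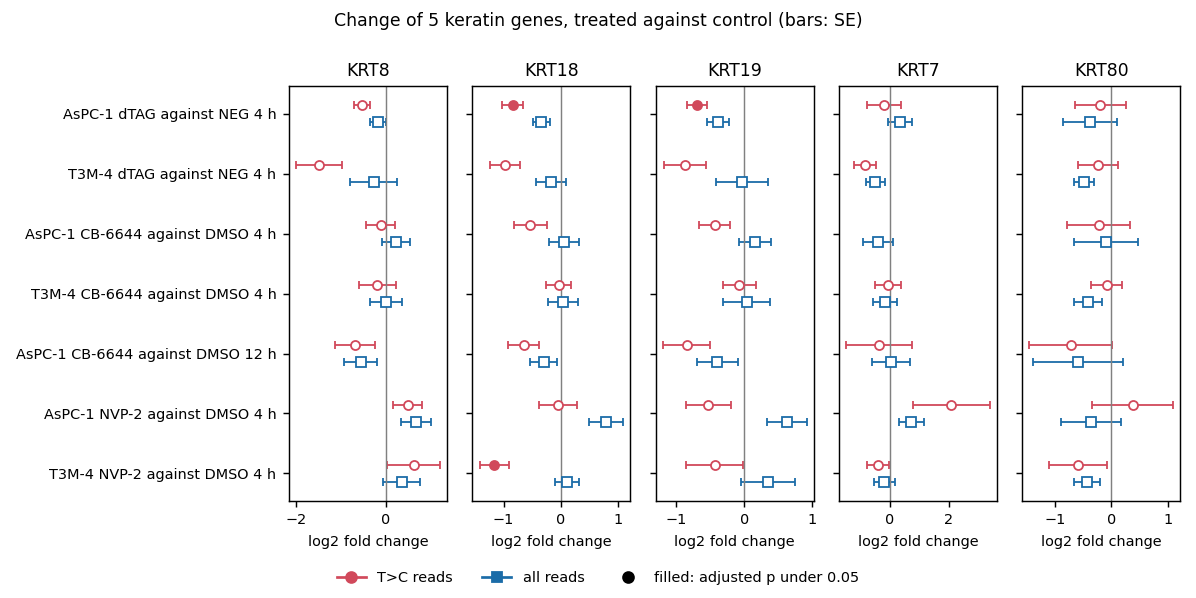
Log2 change of treated against control (horizontal axis) for the 5 members tested, in the 7 comparisons. Red circles are T>C reads and blue squares all reads, bars are standard errors, and filled symbols have an adjusted p under 0.05 in edgeR. In both dTAG comparisons the red circles of KRT8, KRT18 and KRT19 lie left of the blue squares, and filled symbols are KRT18 and KRT19 in AsPC-1 dTAG and KRT18 in T3M-4 NVP-2.

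No member passed the test in the standing pool of RNA at 4 h. Among all reads in AsPC-1, KRT18 was at log2 -0.34 ± 0.15, KRT19 at -0.39 ± 0.16 and KRT8 at -0.17 ± 0.18 in dTAG against NEG, and 0 of 5 members passed in edgeR (DESeq2 called 221 genes and 1056 had an unadjusted p under 0.05) while 0.797% of genes did. Of the 9 dTAG libraries, 6 lay below the lowest NEG library in KRT18, 2 in KRT19 and 1 in KRT8. In T3M-4 they were at -0.17, -0.04 and -0.27, with 0 of 5 called and 0.0191% of genes called. DESeq2 called 0 members there as well, and 533 genes had an unadjusted p under 0.05. KRT80 was the member whose T3M-4 groups did not overlap, with 4.68, 3.80, 4.41 and 3.67 CPM of all reads in NEG against 2.77, 2.71, 2.74 and 3.62 in dTAG (-0.48 ± 0.18). Its dTAG libraries were all lower, as in 1.81% of genes, and it did not pass the test.

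The labelled share, which compares new reads with the pool of the same library, was lower for KRT8, KRT18 and KRT19 after dTAG in AsPC-1. The labelled share of KRT8 went there from 4.45% ± 0.778 (SD, n = 10) in NEG to 2.76% ± 0.416 (SD, n = 9) in dTAG, that of KRT18 from 3.52% ± 0.609 to 2.1% ± 0.439 and that of KRT19 from 6.25% ± 1.06 to 4.19% ± 1.28. For KRT8 and KRT18, 8 of 9 dTAG libraries lay below the lowest NEG library. On the log2 scale of T>C over other reads, the changes were -0.71 ± 0.13, -0.78 ± 0.15 and -0.64 ± 0.16 (limma adjusted p = 0.000848, 0.00112 and 0.0062). KRT7 was called as well, at -1.54 ± 0.60 (adjusted p = 0.0454) on few reads, and that call was lost in 13 of the fits that left out a library, with adjusted p up to 0.0887. KRT80 was at 0.00 ± 0.15, with 16.2% ± 3.42 and 16.1% ± 2.52. These 4 calls of 5 members stand in a comparison in which 43.6% of genes were called and the median gene was at -0.32. After the median of each library was subtracted, 0 members were called by limma, with KRT8 at -0.40 (adjusted p = 0.171), KRT18 at -0.47, KRT19 at -0.33 and KRT80 at 0.31, and 90 genes in all.

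In T3M-4 the groups were apart for KRT8, KRT18 and KRT19. The labelled share of KRT8 was 5.40 to 6.69% in NEG, 5.93% ± 0.603 (SD, n = 4), and 2.38 to 3.55% in dTAG, 2.79% ± 0.521. That of KRT18 was 6.47% ± 1.02 against 3.79% ± 0.389, and that of KRT19 7.12% ± 1.48 against 4.15% ± 1.08. For each of these 3 genes all dTAG libraries lay below all NEG libraries, as in 2.2% of genes. The 95% Wilson intervals of the nearest KRT8 libraries were 3.35 to 3.76% in dTAG and 5.25 to 5.56% in NEG; such intervals cover counting error only, since PCR copies were not marked. The log2 changes, -1.15 ± 0.23, -0.81 ± 0.21 and -0.84 ± 0.27, did not pass over all genes (limma adjusted p = 0.205, 0.367 and 0.533), in a test that called 0.0245% of genes and had 886 with an unadjusted p under 0.05. KRT7, at 3.38% ± 0.452 and 2.85% ± 0.251, and KRT80, at 16.5% ± 1.92 and 20.02% ± 4.22, overlapped.

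**Figure D3:**
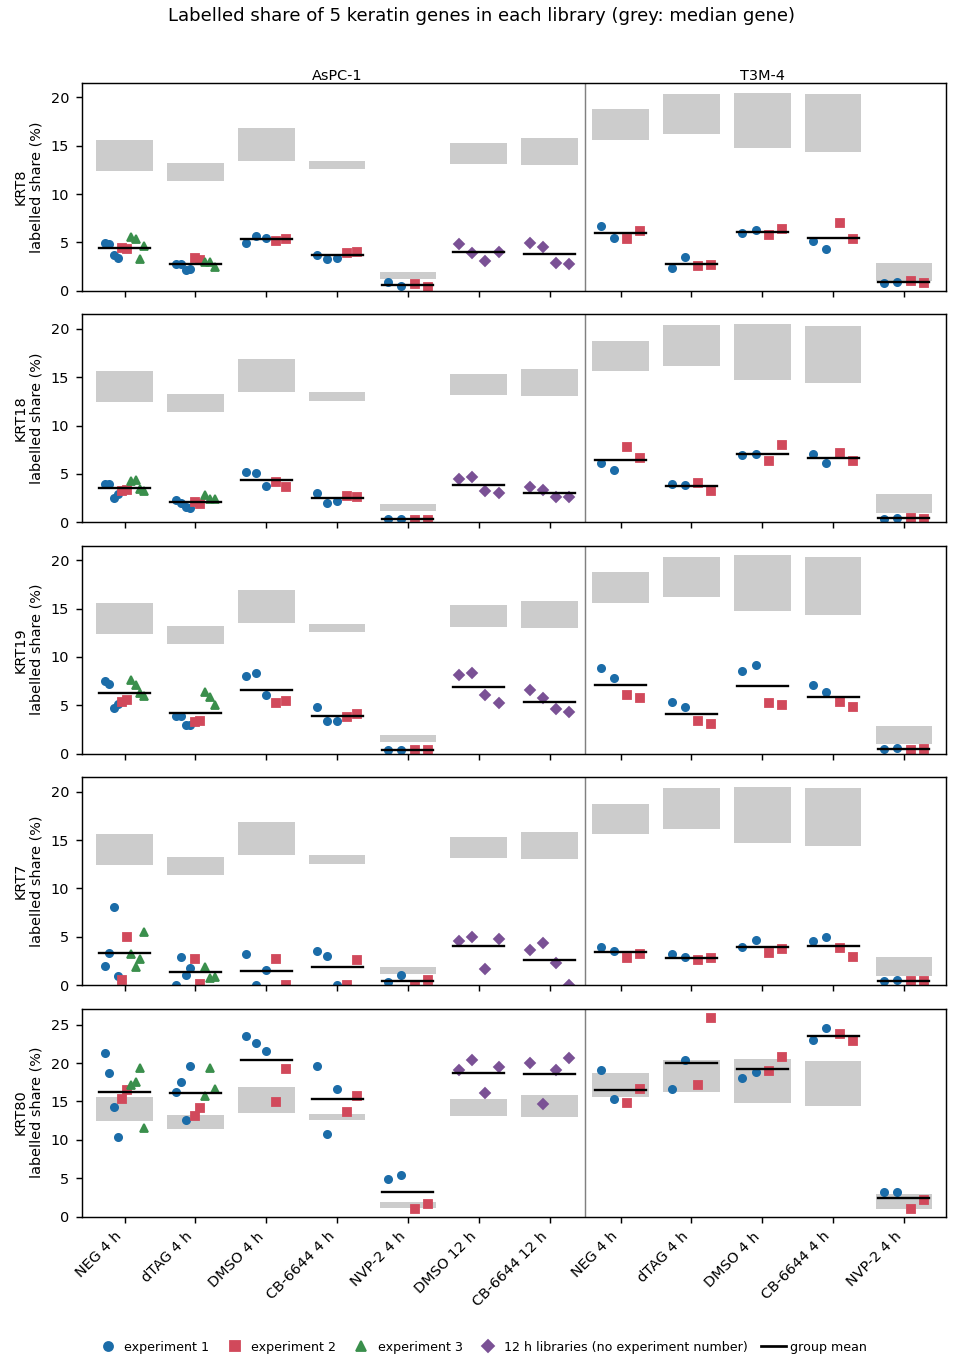
Labelled share in percent (T>C reads of all reads, vertical linear axis from 0) of the 5 members in every library, with group means as black lines. The grey band runs from the lowest to the highest median share of all genes among libraries of a group. KRT8, KRT18 and KRT19 lie under the band in every group outside NVP-2 and lower in dTAG than NEG in both lines, while KRT80 lies near the band.

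No member passed the test in T>C reads after CB-6644. In AsPC-1 at 4 h, KRT18 had 797, 1153, 593, 1599 and 1298 T>C CPM in DMSO libraries 1.1, 1.2, 1.3, 2.1 and 2.2, and 631, 562, 503, 1080 and 989 in CB-6644. Groups overlapped, with 2 of 5 CB-6644 libraries below the lowest DMSO library. KRT19 had 361, 558, 228, 407 and 310 against 190, 301, 259, 314 and 316, and KRT8 had 801, 1263, 738, 1725 and 855 against 413, 1000, 819, 1322 and 1448. The log2 changes were -0.53 ± 0.29 for KRT18, -0.43 ± 0.23 for KRT19 and -0.11 ± 0.33 for KRT8, and 0 of 4 members tested passed. edgeR called 0 genes in all in this comparison, with 482 (4.14%) at an unadjusted p under 0.05, and DESeq2 called 1 gene. KRT7 did not pass the filter there.

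The labelled share set the AsPC-1 CB-6644 libraries apart from DMSO for the same trio. KRT8 was at 5.33% ± 0.262 (SD, n = 5) in DMSO and 3.66% ± 0.323 in CB-6644, KRT18 at 4.38% ± 0.75 and 2.49% ± 0.411, and KRT19 at 6.62% ± 1.47 and 3.88% ± 0.596. All 5 CB-6644 libraries lay below all 5 DMSO libraries for each gene, as was true of 7.88% of genes. The log2 changes were -0.57 ± 0.14, -0.84 ± 0.20 and -0.80 ± 0.19 (limma adjusted p = 0.0783, 0.0761 and 0.0837), against a median of -0.27 over all genes. limma called 0 genes, and 2668 had an unadjusted p under 0.05. KRT80 was at 20.4% ± 3.43 in DMSO and 15.3% ± 3.32 in CB-6644 (-0.52, adjusted p = 0.178).

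At 12 h in AsPC-1 the values pointed the same way with wide errors. KRT19 had 872, 757, 683 and 253 T>C CPM in DMSO libraries 1 to 4 and 278, 450, 400 and 292 in CB-6644. The lowest library of the comparison was a DMSO library, so the groups overlapped. The log2 change was -0.85 ± 0.35 for KRT19, -0.69 ± 0.44 for KRT8, -0.65 ± 0.27 for KRT18 and -0.72 ± 0.73 for KRT80, and 0 of 5 members and 0 genes were called by edgeR, with 473 at an unadjusted p under 0.05 and 26 genes, no member among them, called by DESeq2. Among all reads at 12 h, KRT8 was at -0.56, KRT18 at -0.30 and KRT19 at -0.40, and 0 were called. In T3M-4 at 4 h, CB-6644 against DMSO put KRT8 at a log2 change of -0.19 ± 0.42, KRT18 at -0.04, KRT19 at -0.08, KRT7 at -0.06 and KRT80 at -0.09, with 0 of 5 called, 0 genes called by edgeR, 569 at an unadjusted p under 0.05 and 7 by DESeq2. KRT80 alone had groups that did not overlap in labelled share there, with 18 to 20.8% in DMSO (19.2% ± 1.15, SD, n = 4) and 22.8 to 24.5% in CB-6644 (23.5% ± 0.769), higher in treated libraries as in 0.677% of genes (log2 0.38 ± 0.15), and it did not pass. limma called 0 genes in that comparison, with 324 at an unadjusted p under 0.05. At 12 h in AsPC-1 the labelled share of KRT18 was at -0.35 ± 0.24, KRT19 at -0.40 ± 0.23 and KRT8 at -0.10, with 0 of 5 members and 0.00866% of genes called. Among all reads at 4 h, 0 members were called after CB-6644 by edgeR or DESeq2 in either line, with 0 and 0.0127% of genes called by edgeR in AsPC-1 and T3M-4, and 267 and 453 at an unadjusted p under 0.05. The difference between lines was not called for any member, nor for any other gene, by edgeR, with 511 genes at an unadjusted p under 0.05 and 3 genes called by DESeq2.

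NVP-2 changed the labelled share of nearly every gene, which sets the scale for reading the keratins. It shares its DMSO libraries at 4 h with CB-6644 in each line, so both comparisons carry the same control error. In AsPC-1 the NVP-2 libraries were of batch 2 and the DMSO libraries of batch 1, so treatment and batch cannot be told apart there. The labelled share of KRT8 was 0.624% ± 0.206 (SD, n = 4) after NVP-2 in AsPC-1, against 5.33% ± 0.262 in DMSO, and 0.889% ± 0.104 against 6.12% ± 0.303 in T3M-4. KRT18 was at 0.299% ± 0.0251 and 0.392% ± 0.0666, and KRT19 at 0.371% ± 0.0390 and 0.468% ± 0.0665. In AsPC-1 4 of 5 members were called lower by limma, from -3.22 for KRT8 to -4.23 for KRT19, where 97.5% of genes were called and the median was -3.43. In T3M-4 all 5 were, from -2.87 for KRT8 to -4.29 for KRT18, where 93.8% were and the median was -3.60. Relative to the median of each library, KRT19 alone of the 5 members was called in AsPC-1 (-0.73, limma adjusted p = 0.0319). Of 10802 genes there, 3253 were called, 1369 of them lower, so that 1 call does not set the keratins apart. In T3M-4 0 of 5 members were called, where 3223 of 12053 genes were.

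T>C CPM give each gene's part of the T>C reads that were left. The labels name no library without 4-thiouridine, so the background of T>C reads was not measured. It may make up more of the T>C reads at the low labelled shares after NVP-2. KRT18 in T3M-4 had 97.2, 90.8, 145 and 99.6 T>C CPM in NVP-2 libraries 1.1, 1.2, 2.1 and 2.2, against 282, 256, 202 and 288 in DMSO. The groups did not overlap, as in 23.3% of genes, and the change of -1.16 ± 0.26 was called (edgeR adjusted p = 0.00873). It was the only 1 of 5 members called, where 26.7% of genes were called and 14.2% were called lower, and the call was lost within experiment 2 (-0.94, adjusted p = 0.0921) and with counts summed per experiment (adjusted p = 0.136). KRT8, its partner, had 122, 130, 639 and 448 T>C CPM against 80.8, 173, 324 and 331, at 0.63 ± 0.59, and did not pass. KRT19 (-0.44), KRT7 (-0.40) and KRT80 (-0.60) did not pass either. In AsPC-1 0 of 5 were called, where 30.5% of genes were: KRT8 had 802, 1228, 2138 and 1755 T>C CPM (0.50 ± 0.33), KRT18 637, 1580, 812 and 1048 (-0.05) and KRT19 118, 347, 239 and 304 (-0.53 ± 0.33). KRT19 was called with the DMSO libraries of 12 h as control (-1.28, edgeR adjusted p = 0.0444) and with the NEG libraries of experiment 3 (-1.27, adjusted p = 0.0144), both of batch 2. When T>C counts were scaled by all reads, the median gene moved to -3.30 in AsPC-1 and -3.11 in T3M-4. KRT8 then turned from higher to lower in both lines (-2.74 and -2.56). In those fits 4 and 5 members were called, where 10900 and 10853 genes were called in all, so the counts do not set the keratins apart.

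Among all reads after NVP-2, KRT18 was at log2 0.79 ± 0.30 (edgeR adjusted p = 0.118), KRT8 at 0.68 ± 0.33 and KRT19 at 0.62 in AsPC-1, and 0.11, 0.36 and 0.35 in T3M-4. In both lines 0 of 5 were called, against 11.8% and 5.16% of genes. Without NVP-2 library 1.1, KRT8 (0.94) and KRT19 (0.85) were called higher in AsPC-1 (adjusted p = 0.0438 and 0.0437). The NVP-2 effect of no member differed between lines by interaction, where 0.851% of genes did, and the largest differences among members were -2.58 for KRT7 (adjusted p = 0.366) and -1.13 for KRT18 (adjusted p = 0.239).

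KRT8 and KRT18 form heteropolymers, and the ratio of their T>C CPM was compared in each comparison with an exact permutation test, or 100000 resamples for 10 against 10 libraries, adjusted over the 7 comparisons. The ratio was 1.17 ± 0.379 (SD, n = 10) in NEG and 1.38 ± 0.451 in dTAG of AsPC-1, and the difference did not pass the permutation test (p = 0.374, adjusted p = 0.655). In T3M-4 it followed the experiment number: 0.661, 0.353, 1.21 and 1.74 in NEG libraries 1.1, 1.2, 2.1 and 2.2, 0.249, 0.327, 0.865 and 1.91 in dTAG, and 0.287, 0.676, 1.60 and 1.15 in DMSO. In these 3 groups experiment 1 lay below 1 and experiment 2 mostly above. NVP-2 in T3M-4 had the highest ratios, 1.26 and 1.43 in experiment 1 and 4.41 and 4.50 in experiment 2, and the difference from DMSO was log2 1.66 ± 0.74 (exact permutation p = 0.114, adjusted p = 0.655; the smallest possible is 0.0286). In each experiment both NVP-2 libraries lay above both DMSO libraries. With the experiment as a block, permuting libraries only within an experiment (added after the data were examined), the exact permutation p was 0.0556 (adjusted p = 0.389), which is the smallest this design allows, so the test could not have passed. Among all reads the difference was 0.26 (exact permutation adjusted p = 0.886). No comparison passed the adjusted threshold with or without the block.

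**Figure D4:**
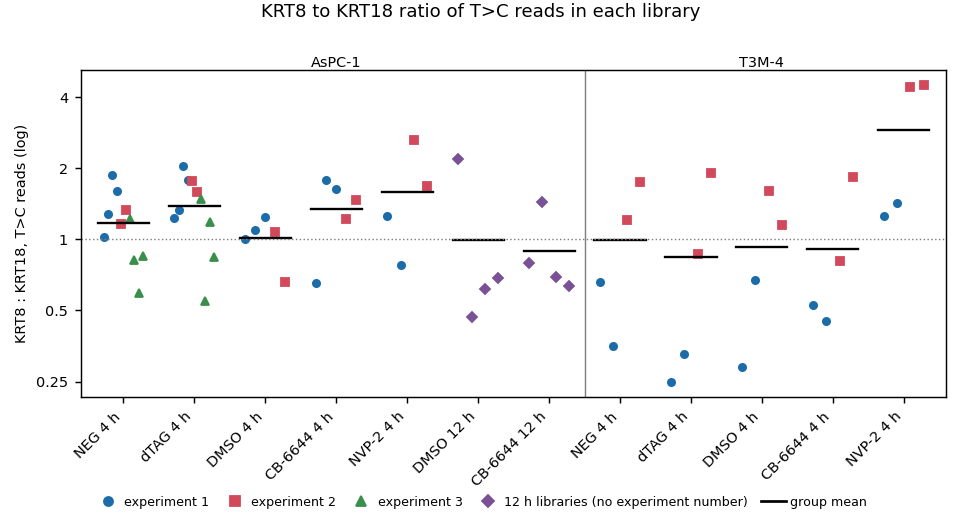
Ratio of KRT8 to KRT18 T>C CPM (vertical log axis) in every library of the 12 groups, with colour and shape by experiment number and a dotted line at 1. The T3M-4 libraries of experiment 2 lie above those of experiment 1 in each treatment, and the 2 highest values are the NVP-2 libraries of T3M-4 experiment 2.

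KRT80 followed the library sets of AsPC-1. In the 17 libraries of 1 of the sets described above, which are mainly those numbered 3 and 4 within an experiment, it ran from 6.36 to 22.7 T>C CPM with a median of 11.0. In the 24 libraries of the other large set it ran from 36.1 to 96.3 T>C CPM with a median of 53.4. The sets did not overlap in KRT80 and did overlap in KRT8, at 529 to 2138 against 359 to 2423 T>C CPM. Both sets hold treated and control libraries, and the labelled share of KRT80 had a median of 16.6% in the first and 17.2% in the second. With the set as a block, the dTAG change of KRT80 in AsPC-1 was log2 -0.02 ± 0.19. Counts of KRT80 among T>C reads were all even, so its counting error may be larger than the counts imply.

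Over all 62 libraries, with each line centred on its own mean, T>C CPM of KRT18 and KRT19 varied together (Pearson r = 0.612 over 42 AsPC-1 and 0.588 over 20 T3M-4 libraries), and KRT8 went with KRT19 (0.425 and 0.697) more than with KRT18 in T3M-4 (0.471 and 0.104). These points share treatments, experiments and library depth, so the values describe these libraries only. Among 12645 genes, those most like KRT8 were ACTN4 (r = 0.818), HSPB1 (0.810) and FTH1 (0.805). Those most like KRT18 were PLCD3 (0.734), GPRC5A (0.721) and PTGES (0.686), and those most like KRT19 were ADAP1 (0.785), EZR (0.785) and EIF6 (0.732). KRT80 was most like NUAK1 (0.890), ARF4 (0.882) and PRICKLE2 (0.876), and these 3 had r of 0.398, -0.148 and 0.282 within T3M-4. KRT7 was most like OAS2 (0.596), DRAM1 (0.577) and FAM27C (0.576), and these 3 had r of 0.562, 0.0589 and -0.025 within T3M-4, where KRT7 is abundant.

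Genes that keratins work with were taken from lists of known roles. After dTAGv-1 in AsPC-1, 3 of 12 genes tested for filament linkers and desmosomes were called lower in T>C reads, as were 1.94% of all genes, and 0 higher: PLEC (-0.83 ± 0.14), a linker of filaments to junctions, PKP3 (-0.85 ± 0.19) and JUP (-0.82 ± 0.20), both of the desmosomal plaque (edgeR adjusted p = 0.00129, 0.0149 and 0.0297). Their list had a median of -0.43 against 0.03 over all genes. In T3M-4, where 0.745% of all genes were called lower, 2 of 16 were, PPL (-2.05 ± 0.36) and JUP (-0.88 ± 0.17; edgeR adjusted p = 0.0306 and 0.0438), with a median of -0.65 against 0.01. Of the keratins of stratified epithelia, 1 of 3 tested in AsPC-1 was called lower, KRT16 (-2.25 ± 0.52, adjusted p = 0.0174), and 1 of 12 in T3M-4, KRT6A (-1.68 ± 0.22, adjusted p = 0.00925), with medians of -0.17 and -0.95. Of keratin partners and modifiers 0 of 11 and 0 of 12 were called, and of other intermediate filaments 0 of 5 and 0 of 6. CB-6644 gave 0 calls in any list in T>C reads, where edgeR called 0 of all genes in each comparison, so that count does not set the lists apart. After NVP-2 in AsPC-1, PERP (1.44), a desmosomal membrane protein, and the kinase MAPK14 (0.95) were called higher and PLEC (-0.92) and PNN (-1.80) lower. Of all genes there, 12.9% were called higher and 17.6% lower. After NVP-2 in T3M-4, the basal keratin pair member KRT5 (2.67), KRT17 (2.39), PERP (1.2) and the nuclear lamins LMNB1 (1.4) and LMNB2 (2.03) were called higher. PLEC (-2.09), PKP3 (-1.58), SFN (-2.16) and PNN (-2.16) were called lower, all on the scale of T>C CPM. Of all genes in T3M-4, 12.4% were called higher and 14.2% lower after NVP-2. Between lines, 13 of 15 stratified keratins tested in all reads were called higher in T3M-4, as were 30.5% of all genes.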

How the data were processed

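The authors sequenced SLAM-seq 3′ end libraries as single-end 100 base reads, mapped them to GENCODE v44 3′UTR exons of hg38 with slamdunk at default settings (version not given in the sources used here) and summed reads over the exons of a gene. The authors deposited raw counts (whole numbers, not normalized), in separate tables for T>C reads and all reads of each line. The 18 empty unnamed columns were left out, and 0 other columns lacked a sample. The all-reads column of AsPC-1 dTAG 3.1 equals the T>C column of AsPC-1 DMSO 12 h library 2, and T>C reads exceeded it in 8047 genes, so it was not used.

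Counts were tested with edgeR 4.0.16 (filterByExpr, TMM, quasi-likelihood F test, R 4.3.3) over all genes, in the 2 groups compared, and called at a Benjamini-Hochberg adjusted p under 0.05. SE is the log2 change divided by the square root of F. CPM were scaled by TMM within a line. Labelled shares were tested with limma 3.58.1 on log2 of T>C over other reads, adding 0.5 to each, in genes with at least 50 reads in every library. Intervals of a labelled share are 95% Wilson intervals. Ratios were tested with scipy 1.17.1, and DESeq2 1.42.0 was an alternative. The scripts were tested on simulated data. Depth per library, from 2240998 to 27982537 T>C reads, limits the precision of KRT7 in AsPC-1, KRT20 and KRT23.

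Experiment numbers paired libraries in AsPC-1 dTAG and NEG (correlation of deviations 0.459, 0.634 and 0.517) and in T3M-4 (0.530, 0.504 and 0.316, where the number is also the batch label). Library numbers at 12 h had correlations of 0.330 to 0.650. CB-6644 libraries 1 and 3 there were most like the DMSO library of their number, while 2 and 4 were most like DMSO libraries 1 and 3. Alternatives covered normalization, filters, blocks, batches, control libraries, read minimums and leaving out libraries. The members and gene lists were chosen with earlier results of these data known. Named genes are all members, KLF5, the 3 genes most like each member, and up to 3 called genes of smallest p per list.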

Additional observations from a re-analysis of the deposited data

Results flagged for a closer look

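Of 120 groups of 4 to 10 libraries checked, 5 held a library that stood apart from the rest by Dixon's criterion, and about 5% of groups do so by chance. KRT19 in AsPC-1 dTAG library 3.1 had 502 T>C CPM, where the next highest of the 10 libraries had 332 and the lowest 242. KRT18 in T3M-4 NVP-2 library 2.1 had 145 T>C CPM, against 99.6 for the next and 90.8 for the lowest, and still lay below every DMSO library. KRT80 in T3M-4 dTAG library 2.2 had 7.35 T>C CPM, against 3.82 and 3.34. The labelled share of KRT19 in T3M-4 NVP-2 library 1.2 was 0.566% (95% Wilson interval 0.527 to 0.609%), against 0.444% and 0.421%. That of KRT7 in AsPC-1 DMSO 12 h library 3 was 1.72% (0.834 to 3.50%), against 4.56% for the nearest and 5.01% for the highest, in a line with few KRT7 reads.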

How the results depend on the processing

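Over all settings that did not leave out a library, 521 values kept their direction and side of the threshold, 29 turned direction, 21 came past the threshold and 18 were lost, and of those that left out a library 997, 82, 4 and 16. The cause was not tested. For AsPC-1 dTAG, 2 members called in T>C reads became 0 with counts summed per experiment and 0 within batch 1 or batch 2, and 0 to 3 when libraries or experiments were left out. For T3M-4 dTAG, 0 became 1 with DESeq2, 2 with the experiment or the library number as replicate block, 3 with summed counts and that block, and 2 within experiment 2. None of these settings called more than 354 genes. The replicate block changed no other call of a member than these, KRT8 in AsPC-1 dTAG and KRT7 in its labelled share (adjusted p = 0.0527). For NVP-2, the AsPC-1 count of 0 became 4 when scaled by all reads and 1 with either other control, and the T3M-4 count of 1 became 5 when scaled, 0 when summed and 0 within experiment 2. The scaled fits called 10900 and 10853 genes in all. Among all reads, the AsPC-1 NVP-2 count of 0 reached 2 when a library was left out (0 to 2). With library medians subtracted, called labelled shares went from 4 to 0 (AsPC-1 dTAG), 4 to 1 and 5 to 0 (NVP-2), and between lines from 1 to 0, or to 2 with NEG libraries.

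These log2 changes turned direction. Within batch 2 KRT7 was at 0.10 in AsPC-1 dTAG, and within experiment 2 KRT80 at 0.10 in T3M-4 dTAG, KRT8 at 0.088 and KRT80 at 0.10 in AsPC-1 CB-6644, and KRT7 at 0.40 in T3M-4 NVP-2. In T3M-4 CB-6644, KRT18 was at 0.000958 when scaled, KRT7 at 0.00277 when summed, and KRT8, KRT18 and KRT19 at 0.20, 0.15 and 0.17 within experiment 1. In AsPC-1 NVP-2, KRT18 was at 0.00387 with DESeq2 and 0.0127 with its size factors, KRT8 at -2.74 and KRT80 at -2.76 when scaled, and KRT80 at -0.067, -0.67 and -0.56 with the experiment block, the library number block and the summed block. In T3M-4 NVP-2, KRT8 was at -2.56 when scaled, and these 3 scaled NVP-2 values were called (edgeR adjusted p = 6.18e-06, 0.00434 and 0.000504). With NEG libraries the line difference of KRT19 was -0.33 and that of the KRT80 labelled share 0.059. Centred labelled shares turned for KRT7, KRT8 and KRT80 under NVP-2 (2.46, 0.27 and 0.26 in AsPC-1, 0.31, 0.59 and 0.083 in T3M-4) and for KRT19 between lines (-0.13). With the block, differences between lines were 0.061 for KRT8 under CB-6644 and -0.039 for KRT19 under NVP-2. Ratios of KRT8 to KRT18 were 0.091 in all reads and 0.039 summed for T3M-4 CB-6644, and -0.17 in all reads at 12 h and for AsPC-1 NVP-2.

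Leaving out libraries turned these T>C values: KRT7 -0.49 to 0.022 in AsPC-1 dTAG, KRT8 -0.28 to 0.13 and KRT80 -0.55 to 0.041 in AsPC-1 CB-6644 at 4 h, KRT7 -0.96 to 0.60 at 12 h, KRT18 -0.36 to 0.14 and KRT80 -0.20 to 0.74 in AsPC-1 NVP-2, and KRT7 -0.58 to 0.15 in T3M-4 NVP-2. In T3M-4 CB-6644 all 5 turned, KRT7 from -0.30 to 0.48, KRT8 -0.52 to 0.048, KRT18 -0.15 to 0.094, KRT19 -0.21 to 0.055 and KRT80 -0.19 to 0.034. Among all reads, KRT8 ran from -0.62 to 0.019 and KRT19 from -0.22 to 0.21 in T3M-4 dTAG, KRT18 from -0.074 to 0.21 and KRT80 from -0.43 to 0.18 in AsPC-1 CB-6644, KRT7 from -0.43 to 0.30, KRT8 -0.25 to 0.22, KRT18 -0.12 to 0.20 and KRT19 -0.16 to 0.24 in T3M-4 CB-6644, KRT7 from -0.43 to 0.83 and KRT80 -0.99 to 0.063 at 12 h, and KRT7 from -0.37 to 0.28 and KRT18 -0.05026 to 0.24 in T3M-4 NVP-2. Labelled shares ran from -0.076 to 0.0597 for KRT80 in AsPC-1 dTAG, -0.39 to 1.28 for KRT7 in AsPC-1 CB-6644, -0.057 to 0.21 for KRT7 in T3M-4 CB-6644, and -0.25 to 0.0300 for KRT8 and -0.11 to 0.11 for KRT80 at 12 h. Ratios ran from -0.48 to 0.35 in T3M-4 CB-6644 and -0.21 to 0.53 at 12 h.

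Counts of all genes called also moved. In T>C reads the AsPC-1 dTAG count of 281 ranged from 0 (summed) to 945 (scaled), that of T3M-4 dTAG, 112, from 0 to 354, and those of NVP-2, 3506 and 3263, from 1024 to 10900 and 0 to 10853. CB-6644 reached 15, 7 and 26 genes in AsPC-1 at 4 h, T3M-4 and AsPC-1 at 12 h. The labelled share count of 4785 in AsPC-1 dTAG ranged from 90 to 5433, and those of NVP-2, 10533 and 11302, fell to 3253 and 3223 with medians subtracted. That of T3M-4 dTAG, 3, reached 16, that of AsPC-1 CB-6644, 0, reached 114, and that between lines, 1791, reached 4590. In all reads DESeq2 called 221 in place of 111 and 74 in place of 3 for dTAG, 6, 12 and 18 in place of 0, 2 and 0 for CB-6644, and 2752 and 1451 in place of 1667 and 807 for NVP-2. For differences between lines it called 38, 3 and 599 in place of 6, 0 and 112. In AsPC-1 at 4 h, experiment numbers went together between CB-6644 and DMSO (correlation 0.457 over 2 experiments) and not between NVP-2 and DMSO (-0.0045). Library numbers had correlations of -0.0826 to 0.472 for CB-6644 and -0.0875 to 0.187 for NVP-2. CB-6644 libraries 1.1, 1.3 and 2.1 and NVP-2 libraries 1.1 and 1.2 were most like the DMSO library of their number. CB-6644 libraries 1.2 and 2.2 and NVP-2 libraries 2.1 and 2.2 were not. Depth limits KRT7 in AsPC-1, KRT20 and KRT23.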
